A study of Mus musculus with 6 samples.

Results

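The genes examined were 10 ligands and receptors of the platelet-derived growth factor (PDGF) and vascular endothelial growth factor (VEGF) families, chosen by gene symbol from the 24214 features of the tables. They were the PDGF ligands Pdgfa, Pdgfb and Pdgfc, the VEGF ligands Vegfa, Vegfb and Vegfc, the PDGF receptors Pdgfra and Pdgfrb, and the VEGF receptors Flt1 and Kdr, which encode VEGFR1 and VEGFR2. RNA had been sequenced from 393P cells, an epithelial mouse lung adenocarcinoma cell line, in 3 samples with stable ectopic ZEB1 (393P_ZEB1) and 3 samples with the empty vector (393P_vector). Both groups had been transfected, drug-selected and grown in culture, and the labels state no time or dose and do not say whether the samples of a group were separate cultures or clones, so p-values measure only the spread between these samples, which may be technical. ZEB1 is a zinc finger repressor that binds E-box sequences and drives epithelial-to-mesenchymal transition (EMT).

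PDGF and VEGF ligands are secreted, disulfide-linked dimers that bind receptor tyrosine kinases on the cell surface. Bound receptors dimerize, phosphorylate each other and recruit adaptors, lipid kinases and phospholipases that signal through the MAP kinase, PI3K and calcium pathways. In tumors, carcinoma cells are a known source of the ligands, while KDR is best known on endothelial cells, PDGFRB on pericytes and PDGFRA on fibroblasts. Carcinoma cells that have undergone EMT can also express some of these receptors.

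Total counts per sample were between 54442450 and 79158012, so that 3 counts, taken as the smallest level that can be shown, were between 0.0379 and 0.0551 CPM. CPM is the count of a gene per megaread of the normalized library. The targeted gene was higher in the samples labelled with ectopic ZEB1. Zeb1 was at 21.2, 22.0 and 21.4 CPM in 393P_vector replicates 1 to 3 and at 54.9, 48.9 and 51.3 CPM in 393P_ZEB1 replicates 1 to 3, a log2 fold change of 1.26 (SE 0.10, edgeR adjusted p = 6.06e-05). Zeb1 lies on chromosome 18, whose tested genes had a median log2 fold change of 0.64. Reads of the transfected cDNA and of the cell's own gene cannot be told apart in these counts. One library stood apart. 393P_vector replicate 3 was the most deeply sequenced and had a voom sample weight of 0.111, against 0.726 to 3.02 in the other 5 samples. Calls of the family genes and counts of the pathway lists that change without it are given both ways. Calls of the markers and of single genes in the further lists were not examined without it. Of 8 epithelial markers, 7 were called lower in 393P_ZEB1, where 19.3% of all tested genes were. Cdh1 (E-cadherin) was at 162 CPM in 393P_vector against 9.51 CPM in 393P_ZEB1. The most abundant of these markers, the keratins, stayed high. Krt18 was at 2264 against 1327 CPM and Krt8 at 894 against 585 CPM. Krt19, at 1272 against 968 CPM, was not called. All 8 lung lineage markers were below 1 CPM in every sample and Scgb1a1 was at 0. Ager, the only 1 of them tested, was above the floor at 0.499 CPM in 393P_vector and 0.277 CPM in 393P_ZEB1. The other markers of differentiated lung epithelium were at or near the floor in both groups.

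All 10 genes passed the filter on low counts. By edgeR's quasi-likelihood test with an adjusted p below 0.05, 1 rose (Pdgfrb), 4 fell (Pdgfra, Vegfa, Vegfc and Kdr) and 5 did not pass the threshold (Pdgfa, Pdgfb, Pdgfc, Vegfb and Flt1). Of all 13892 genes tested, 18.3% were called higher, 19.3% lower and 37.6% in either direction. The median log2 fold change was -0.21 over the 10 genes and -0.02 over all tested genes. The CPM of both groups did not overlap in 6 of the 10 genes, where 52.8% of all tested genes did not overlap. Without 393P_vector replicate 3, 1 of the 10 was called higher and 5 lower, and of all 14106 genes then tested 26.2% were called higher and 26.8% lower.

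**Figure D1:**
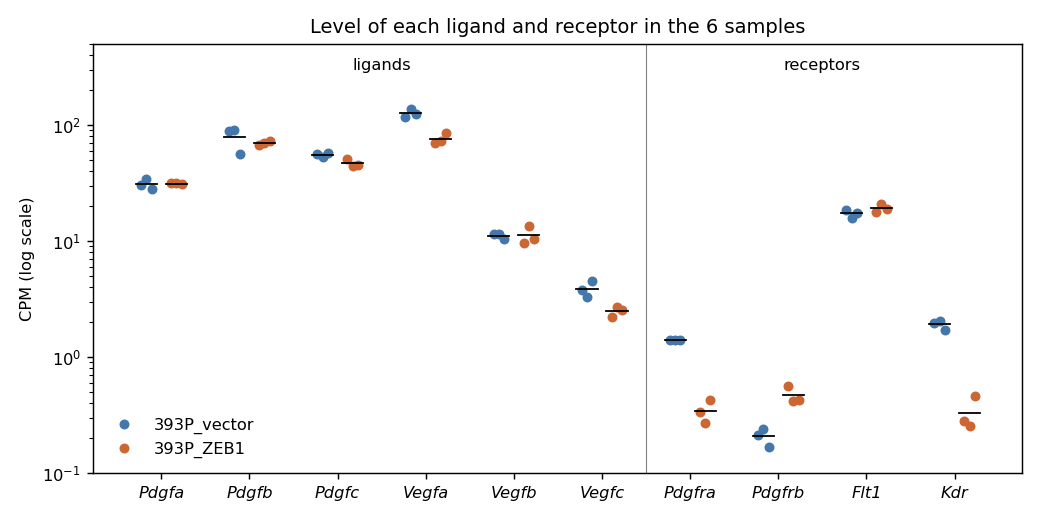
Level of the 10 genes in each of the 6 samples, in CPM on a log axis, with points for samples and bars for group means. Kdr and Pdgfra lie lower in the 393P_ZEB1 samples, Pdgfrb lies higher, and the points of Pdgfa, Pdgfb, Vegfb and Flt1 overlap between the groups.

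The levels of the ligands and of the receptors lay far apart. Levels of different genes were compared in CPM per kilobase of exon. In 393P_vector, Pdgfa (30.6 ± 3.25, SD, n = 3), Vegfa (30.3 ± 2.57) and Pdgfb (26.9 ± 6.62) were the most abundant and did not differ beyond their spread. Pdgfc (15.9 ± 0.719) and Vegfb (8.69 ± 0.516) followed, then Flt1 (2.76 ± 0.216) and Vegfc (2.07 ± 0.348). Kdr (0.351 ± 0.0337), Pdgfra (0.208 ± 0.000198) and Pdgfrb (0.0382 ± 0.00651) were the lowest. In 393P_ZEB1 the ligand order was Pdgfa (30.9 ± 0.408), Pdgfb (23.8 ± 0.919), Vegfa (18.2 ± 1.81), Pdgfc (13.4 ± 1.07), Vegfb (8.77 ± 1.53) and Vegfc (1.33 ± 0.129). Flt1 (3.09 ± 0.258) stayed the highest of the 4 listed receptors, followed by Pdgfrb (0.0866 ± 0.0151), Kdr (0.0609 ± 0.0207) and Pdgfra (0.0513 ± 0.0116). Kdr did not differ from either of these neighbors beyond their spread, while Pdgfrb lay above Pdgfra in every sample.

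Vegfa, the main angiogenic ligand of KDR and FLT1, had the highest CPM of the 10 genes in 393P_vector and fell in 393P_ZEB1. Its level was 116, 138 and 125 CPM in 393P_vector replicates 1 to 3 and 70.6, 72.7 and 84.5 CPM in 393P_ZEB1 replicates 1 to 3. The highest 393P_ZEB1 sample lay below the lowest 393P_vector sample. The log2 fold change was -0.73 (SE 0.12, 95% interval -1.01 to -0.46, edgeR adjusted p = 0.00205), so the mean was 1.66-fold higher in 393P_vector. The median of the 675 tested genes on chromosome 17, where Vegfa lies, was also negative at -0.43, and the part of this shift in the fall of Vegfa was not tested. A test against a fold change of 1.5 did not call Vegfa (adjusted p = 0.185).

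The promoter windows of Vegfa are shown because E-boxes are the DNA sequence that ZEB1 is known to bind. Windows of 300 bases, 250 before and 50 after an annotated start, were available from RefSeq (GRCm38.p6) for 8 of the 10 genes, with 10 windows in all. The E-box CAGGTG (or CACCTG on the other strand) was in 1 of these 10 windows and in 20.2% of 32851 mouse promoter windows of that length. The E-box CAGGTA (or TACCTG) was in 1 of the 10, a window of Pdgfa, and in 11.96% of all. The window with CAGGTG belongs to the internal start of Vegfa at chr17:46025114-46025413 on the minus strand, and its 2 matches, at positions -186 and -178 from the start, are in capitals.
Vegfa, internal start: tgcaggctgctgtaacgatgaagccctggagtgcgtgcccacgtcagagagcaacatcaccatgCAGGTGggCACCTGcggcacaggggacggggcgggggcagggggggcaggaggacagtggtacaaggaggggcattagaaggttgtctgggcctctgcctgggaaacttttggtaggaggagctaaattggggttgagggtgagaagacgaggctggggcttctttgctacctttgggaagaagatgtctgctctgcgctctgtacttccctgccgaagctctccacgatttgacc
The matches do not overlap each other. Of the 6 bases of the match at -186, 3 are coding in all 8 of 8 annotated coding transcripts of Vegfa (GENCODE M21), so this window begins inside a Vegfa exon. The window at the 5' start of Vegfa, chr17:46032328-46032627, held neither E-box. A match is a description of the letters and no measurement of binding.

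Vegfc, a ligand best known for lymphatic vessel growth through FLT4, was the least abundant listed ligand and was also lower in 393P_ZEB1. It was at 3.82, 3.26 and 4.56 CPM in 393P_vector and at 2.22, 2.70 and 2.54 CPM in 393P_ZEB1. The groups did not overlap, with a gap between 2.70 and 3.26 CPM. Its log2 fold change was -0.64 (SE 0.19, 95% interval -1.08 to -0.20, edgeR adjusted p = 0.0305). The call was lost without 393P_vector replicate 1 (adjusted p = 0.0749) and without 393P_ZEB1 replicate 1 (0.106), 2 (0.0713) or 3 (0.0942), and with the replicate number as a block (0.0668).

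Vegfb, a ligand of FLT1 known for roles in metabolism and survival more than in vessel growth, was at 11.4, 11.5 and 10.3 CPM in 393P_vector and at 9.70, 13.4 and 10.47 CPM in 393P_ZEB1. The ranges overlapped throughout. With a log2 fold change of 0.01 (95% interval -0.36 to 0.38, edgeR adjusted p = 0.956), Vegfb did not pass the threshold, and the value was -0.04 without 393P_vector replicate 3 and -0.13 without 393P_ZEB1 replicate 2.

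The 3 listed PDGF ligands did not pass the threshold with all samples. Pdgfa, whose product binds PDGFRA, was at 30.1, 34.5 and 28.1 CPM in 393P_vector and at 31.5, 31.6 and 30.8 CPM in 393P_ZEB1. The 393P_ZEB1 samples lay inside the range of the 393P_vector samples, with a log2 fold change of 0.02 (95% interval -0.25 to 0.29, edgeR adjusted p = 0.922) and of -0.05 without 393P_vector replicate 3. Pdgfc, which encodes a ligand secreted in latent form and cut by proteases, was at 56.7, 52.8 and 57.6 CPM in 393P_vector and at 51.4, 44.3 and 45.6 CPM in 393P_ZEB1. These groups did not overlap, but the log2 fold change of -0.24 (95% interval -0.49 to 0.01) did not pass the test (edgeR adjusted p = 0.119). The fit by limma voom with sample weights did call it (-0.27, adjusted p = 0.01001).

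The result for Pdgfb, whose product binds both PDGF receptors and recruits pericytes, rested on 1 library. It was at 89.6, 90.6 and 56.5 CPM in 393P_vector and at 67.0, 70.3 and 72.3 CPM in 393P_ZEB1. The value of 56.5 CPM in 393P_vector replicate 3 was the lowest of the 6, and the other 393P_vector samples were the highest. With all samples the log2 fold change was -0.18 (SE 0.18, 95% interval -0.60 to 0.25, edgeR adjusted p = 0.487). Without 393P_vector replicate 3 it was -0.37 (adjusted p = 0.00222), and limma voom, which gave that library a low weight, estimated -0.34 (adjusted p = 0.00355). The median of the 574 tested genes on chromosome 15, where Pdgfb lies, was -0.33.

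Kdr, the main signalling receptor for VEGF-A, showed the largest fall of the 10 genes. It was at 1.98, 2.04 and 1.70 CPM in 393P_vector and at 0.280, 0.252 and 0.459 CPM in 393P_ZEB1. In counts these were 112, 120 and 141 against 15, 14 and 28. The lowest 393P_vector sample was well above the highest 393P_ZEB1 sample. The log2 fold change was -2.51 (SE 0.28, 95% interval -3.15 to -1.87, edgeR adjusted p = 0.000309), a level 5.69-fold higher in 393P_vector. The level was low in both groups: of the 30 exons of Kdr, 1, 1 and 2 had more than 10 reads in 393P_vector and 1, 0 and 1 in 393P_ZEB1. In bulk RNA, fewer cells that express a gene and less RNA per cell cannot be told apart.

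Flt1, a receptor that binds VEGF-A, VEGF-B and placental growth factor and whose soluble form is known as a decoy, did not pass the threshold. It was at 18.5, 15.8 and 17.5 CPM in 393P_vector and at 17.8, 21.01 and 19.0 CPM in 393P_ZEB1. The groups overlapped between 17.8 and 18.5 CPM. The log2 fold change was 0.16 (SE 0.13, 95% interval -0.13 to 0.45, edgeR adjusted p = 0.359). Reads were spread along the gene, with 27, 21 and 24 of 30 exons above 10 reads in 393P_vector and 22, 20 and 23 in 393P_ZEB1. The counts do not separate the soluble from the membrane-bound isoform.

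The 2 PDGF receptors moved in opposite directions. Pdgfra, the receptor for PDGF-A and PDGF-C, was at 1.40, 1.39 and 1.40 CPM in 393P_vector and at 0.336, 0.270 and 0.426 CPM in 393P_ZEB1, or 79, 82 and 116 counts against 18, 15 and 26. The 393P_vector samples were nearly equal and all lay above the 393P_ZEB1 samples. This was a log2 fold change of -2.01 (SE 0.24, 95% interval -2.57 to -1.45, edgeR adjusted p = 0.000459), a level 4.02-fold higher in 393P_vector. Pdgfrb, the receptor for PDGF-B, was at 0.212, 0.238 and 0.169 CPM in 393P_vector and at 0.561, 0.414 and 0.426 CPM in 393P_ZEB1, or 12, 14 and 14 counts against 30, 23 and 26. All of the 393P_ZEB1 samples were above the 393P_vector samples. Both levels were low: of 24 exons, Pdgfra had 1, 2 and 1 above 10 reads in 393P_vector and 0, 0 and 0 in 393P_ZEB1. Pdgfrb, also with 24 exons, had 0, 0 and 0 in 393P_vector and 0, 0 and 1 in 393P_ZEB1. Its log2 fold change was 1.18 (SE 0.29, 95% interval 0.51 to 1.86, edgeR adjusted p = 0.0152), which is 2.27-fold, and without 393P_ZEB1 replicate 1 it was 1.04 (adjusted p = 0.0577). Pdgfrb lies on chromosome 18, whose 396 tested genes had a median log2 fold change of 0.64, a value inside the interval of Pdgfrb, and the part of this shift in the rise was not tested. The per-length ratio of Pdgfra to Pdgfrb was 5.29, 4.70 and 6.65 in 393P_vector and 0.482, 0.524 and 0.803 in 393P_ZEB1, so that the more abundant of the pair was Pdgfra in all 393P_vector samples and Pdgfrb in all 393P_ZEB1 samples.

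**Figure D2:**
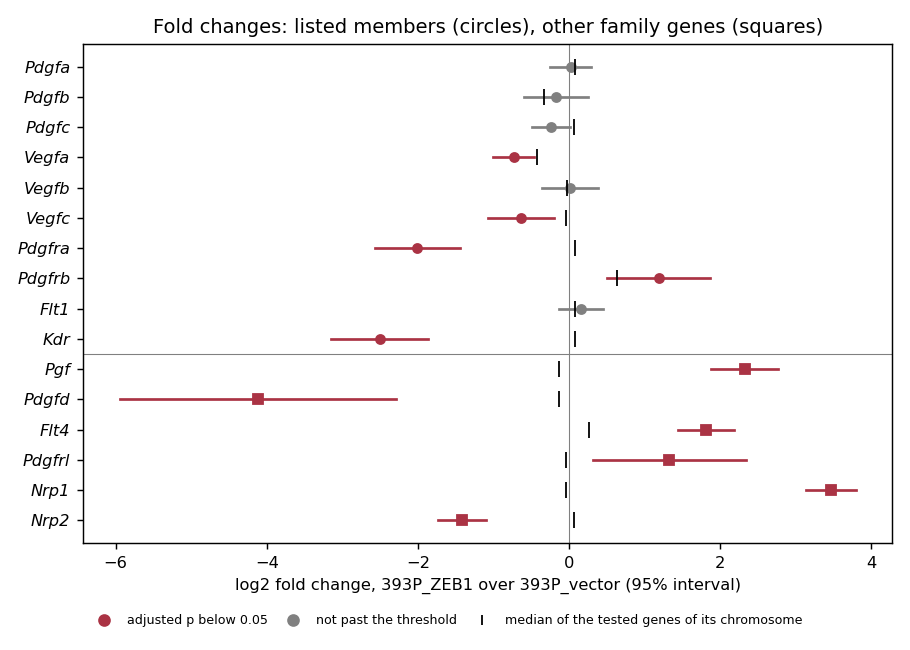
log2 fold change (393P_ZEB1 over 393P_vector) with 95% intervals for the 10 listed genes (circles) and the 6 other tested genes of the families (squares), with a tick at the median of all tested genes on the same chromosome. The intervals of Kdr and Pdgfra lie wholly below their chromosome tick, while the tick at 0.64 lies inside the interval of Pdgfrb.

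Pdgfra and Kdr, the listed genes with the largest falls, are neighbors on chromosome 5. On GRCm38, Pdgfra spans chr5:75152291-75198204 on the plus strand and Kdr spans chr5:75933270-75978428 on the minus strand, with 735065 bases between them. The only feature of the tables between them was Kit, a receptor tyrosine kinase of the same structural class as the PDGF receptors, examined after its values were seen. Kit was at 0.106, 0.0680 and 0.169 CPM in 393P_vector and at 0.0748, 0.108 and 0.0655 CPM in 393P_ZEB1, too low for the test. Of the 10 genes, 4 lie on chromosome 5 (Pdgfa, Pdgfra, Kdr and Flt1), whose 868 tested genes had a median log2 fold change of 0.07. The window at the start of Kdr, chr5:75978406-75978705 on the minus strand, held no E-box of either kind. It is shown because Kdr fell most, with its 2 matches to GCGTG, a core that hypoxia-inducible factors bind, in capitals.
Kdr: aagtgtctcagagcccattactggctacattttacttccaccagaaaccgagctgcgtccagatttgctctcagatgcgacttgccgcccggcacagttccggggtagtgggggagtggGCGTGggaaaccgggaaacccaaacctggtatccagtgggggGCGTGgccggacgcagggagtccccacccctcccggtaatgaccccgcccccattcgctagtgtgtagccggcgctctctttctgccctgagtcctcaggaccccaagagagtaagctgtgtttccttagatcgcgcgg
GCGTG (or CACGC) was in 5 of the 10 windows and in 32.4% of all windows, and ACGTG (or CACGT) was in 1 of the 10, the internal Vegfa window, and in 19.6% of all.

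The miR-200 family, microRNAs that ZEB1 is known to repress and that are known to repress Zeb1, has 5 mature members in 2 seed groups. They are shown with their seed, bases 2 to 8, in capitals, because their target sites were looked for in the 3' UTRs of the 10 genes. The first 3 share one seed and the last 2 share the other.
miR-200b-3p: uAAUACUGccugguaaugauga
miR-200c-3p: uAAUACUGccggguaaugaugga
miR-429-3p: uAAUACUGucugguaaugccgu
miR-200a-3p: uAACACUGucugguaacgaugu
miR-141-3p: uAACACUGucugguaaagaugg
The match to the first seed, CAGTATT, was in the 3' UTR of 4 of the 10 genes (Vegfa, Vegfc, Kdr and Flt1) and of 16.0% of 12010 tested genes with an annotated 3' UTR. The match to the second seed, CAGTGTT, was in 2 of the 10 (Pdgfc and Pdgfra) and in 21.4% of all. The first site is given in capitals for these 4 genes, with its position on GRCm38. Kdr has 2 sites, and the one shown lies inside the interval that the tables give for the gene.
Vegfa, chr17:46017636-46017642, minus strand: agggtttttttCAGTATTcttggttaata
Vegfc, chr8:54186395-54186401, plus strand: ctcactgtgatCAGTATTtttataacatg
Kdr, chr5:75933454-75933460, minus strand: ccccaagtcctCAGTATTttagctttgtg
Flt1, chr5:147564180-147564186, minus strand: ccagcccctgaCAGTATTatacatctatg
Of the 2 sites in Pdgfra, 1 was at chr5:75196543-75196549 on the plus strand.
Pdgfra: tcttgaatagtCAGTGTTcagaaacactg
The level of the mature microRNAs was not measured in these tables, and a seed match in a 3' UTR is a description of sequence only.

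The other genes of the families were taken from a list of 7 ligands, receptors and co-receptors. Of these, 6 were tested, of which 4 were called higher and 2 lower, with a median log2 fold change of 1.57. Of all tested genes, 18.3% were called higher and 19.3% lower. Pgf, which encodes placental growth factor, a ligand of FLT1 but not of KDR, was at 14.0, 12.6 and 8.59 CPM in 393P_vector and at 58.6, 55.0 and 62.0 CPM in 393P_ZEB1 (log2 fold change 2.32, SE 0.19, edgeR adjusted p = 6.18e-05). Flt4, the receptor for VEGF-C, was at 26.7, 27.1 and 18.9 CPM in 393P_vector and at 79.8, 85.8 and 88.6 CPM in 393P_ZEB1 (1.81, SE 0.16, adjusted p = 9.4e-05). Both were higher in every 393P_ZEB1 sample than in any 393P_vector sample.

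The neuropilins, co-receptors that bind VEGF and semaphorin ligands, moved in opposite directions. Nrp1, the neuropilin best known as a partner of KDR, was at 10.9, 9.04 and 8.97 CPM in 393P_vector and at 118, 100.3 and 100.3 CPM in 393P_ZEB1 (log2 fold change 3.47, SE 0.14, edgeR adjusted p = 2.16e-06). Nrp2, the neuropilin best known as a partner of FLT4, was at 151, 139 and 110.2 CPM in 393P_vector and at 49.3, 47.5 and 52.3 CPM in 393P_ZEB1 (-1.42, SE 0.14, adjusted p = 0.000148). The per-length ratio of Nrp1 to Nrp2 was 0.0992, 0.0894 and 0.112 in 393P_vector and 3.29, 2.90 and 2.63 in 393P_ZEB1. All 3 vector samples therefore held more Nrp2 and all 3 ZEB1 samples more Nrp1.

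The remaining 3 were near the floor of detection. Pdgfd, a PDGF ligand activated by proteolysis, had 13, 12 and 46 counts in 393P_vector and 0, 2 and 1 in 393P_ZEB1 (fitted log2 fold change -4.12, SE 0.79, edgeR adjusted p = 0.00496). The fitted value depends on single libraries, with -3.47 without 393P_vector replicate 3, which held 46 of the 71 counts of its group, and -4.99 without 393P_ZEB1 replicate 2. All 393P_ZEB1 samples were below 3 counts, and the summed counts of 71 and 3 gave a level 20.6-fold higher in 393P_vector, with an exact 95% counting interval of 6.75 to 102.03, which covers counting error only. Pdgfrl, a gene related in sequence to the PDGF receptors, was at 0.0883, 0.255 and 0.205 CPM in 393P_vector and at 0.355, 0.666 and 0.377 CPM in 393P_ZEB1 (1.32, SE 0.44, adjusted p = 0.0463), and its call was lost without 393P_vector replicate 1 and without any 1 of the 393P_ZEB1 samples. Figf, the gene of VEGF-D, had 18, 8 and 11 counts against 13, 8 and 9 and was removed by the filter on low counts.

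Summed per length, the makeup of the VEGF ligands differed between the groups more than their total did. The 5 VEGF ligands summed to 48.7 ± 2.91 CPM per kilobase in 393P_vector and 65.9 ± 3.28 in 393P_ZEB1 (SD, n = 3, two-sided exact permutation p = 0.1, the smallest that 3 samples against 3 can give). The 3 listed VEGF ligands, without Pgf and Figf, summed to 41.1 ± 2.51 and 28.3 ± 2.26 (exact p = 0.1), the opposite direction. Vegfa made up 62.3% ± 3.69 of the VEGF ligand sum in 393P_vector and 27.6% ± 1.33 in 393P_ZEB1. Pgf made up 15.4% ± 3.40 and 56.9% ± 2.37. The per-length ratio of Pgf to Vegfa was 0.322, 0.244 and 0.183 in 393P_vector and 2.21, 2.02 and 1.95 in 393P_ZEB1, with no overlap. Their order in 393P_ZEB1 depends on the division by exon length, 1562 bases for Pgf and 4166 for Vegfa. In CPM without it, Vegfa was above Pgf in every sample of both groups. The 4 PDGF ligands summed to 73.5 ± 8.63 and 68.2 ± 0.378 (exact p = 0.4), and the share of Pdgfa among them was 41.7% ± 2.49 and 45.4% ± 0.657.

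The 4 listed receptors summed to 3.36 ± 0.206 CPM per kilobase in 393P_vector and 3.28 ± 0.235 in 393P_ZEB1 (exact permutation p = 0.7), while the sum with Flt4 was 7.54 ± 0.820 and 17.9 ± 0.946 (exact p = 0.1). Kdr made up 4.67% ± 0.182 of the 5 receptors in 393P_vector and 0.340% ± 0.105 in 393P_ZEB1. Flt1 made up 37.0% ± 5.05 and 17.3% ± 0.994, and Flt4 made up 55.1% ± 5.28 and 81.6% ± 0.811. The ratio of Flt1 to Kdr was 8.11, 6.73 and 8.95 in 393P_vector and 55.1, 72.3 and 36.0 in 393P_ZEB1.

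**Figure D3:**
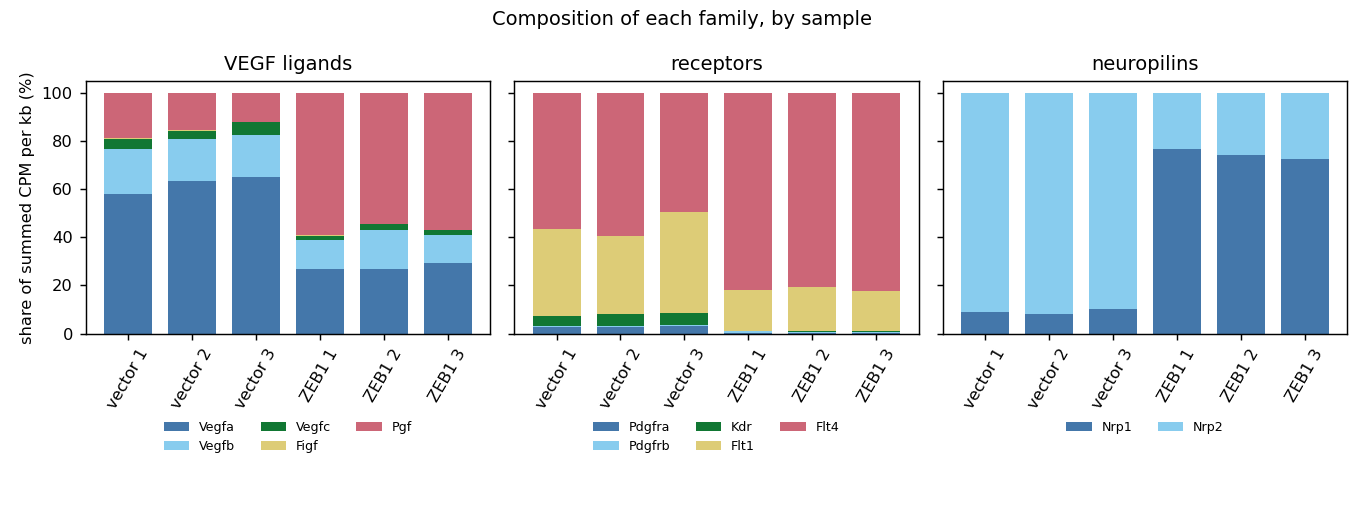
Share of each gene in the summed CPM per kilobase (percent) of the VEGF ligands, the receptors and the neuropilins, 1 stacked bar for each sample. Pgf exceeds Vegfa in the 393P_ZEB1 samples and Vegfa exceeds Pgf in the 393P_vector samples, and Nrp1 and Nrp2 change places likewise.

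Secreted VEGF-C, PDGF-B, PDGF-C and related ligands need proteases, and 10 such genes and cofactors were all tested. Of these, 4 were called higher and 4 lower, against 18.3% and 19.3% of all genes, and the median log2 fold change was 0.11. Without 393P_vector replicate 3, 5 were called higher and 5 lower, against 26.2% and 26.8% of all genes. Plau, which encodes urokinase, fell from 654 ± 56.5 to 55.9 ± 2.92 CPM (log2 fold change -3.55, SE 0.12, edgeR adjusted p = 8.66e-07). St14, which encodes the transmembrane protease matriptase, fell from 98.8 ± 26.8 to 0.424 ± 0.194 CPM (-7.85, SE 0.39, adjusted p = 5.29e-06). Among the proprotein convertases, Pcsk5 rose from 0.610 ± 0.0797 to 8.60 ± 0.263 CPM (3.82, SE 0.18, adjusted p = 3.47e-06) and Pcsk6 rose from 33.5 ± 3.00 to 67.0 ± 5.72 CPM (1.00, SE 0.12, adjusted p = 0.000491).

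Of 24 tested genes whose proteins act next to the receptors, 8 were called higher and 1 lower. Of all genes, 18.3% and 19.3% were, and the median log2 fold change of the list was 0.16. Against a fold change of 1.5, 2 of the list were called higher and 0 lower, where 1081 and 1118 of 13892 genes were. Shc2, an adaptor of receptor tyrosine kinases, rose from 0.129 ± 0.0967 to 24.9 ± 1.52 CPM (7.59, SE 0.36, edgeR adjusted p = 4.37e-06). Fyn, a Src family kinase, rose from 13.9 ± 0.311 to 42.3 ± 1.12 CPM (1.61, SE 0.10, adjusted p = 1.63e-05). The 1 that fell was Ptk2, focal adhesion kinase, from 242 ± 11.02 to 180.1 ± 5.66 CPM (-0.43, SE 0.09, adjusted p = 0.00900). Without 393P_vector replicate 3, 10 genes of the list were called higher and 2 lower, against 26.2% and 26.8% of all genes.

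Of 18 feedback and turnover regulators of receptor tyrosine kinases, 6 were called higher and 4 lower, where 18.3% and 19.3% of all genes were, with a median log2 fold change of 0.09. Without 393P_vector replicate 3, 7 were called higher and 5 lower, against 26.2% and 26.8% of all genes. The Sprouty genes, which encode inhibitors of MAP kinase signalling, split. Spry4 rose from 24.8 ± 2.09 to 117 ± 10.4 CPM (log2 fold change 2.24, SE 0.12, edgeR adjusted p = 6.84e-06), while Spry1 fell from 19.0 ± 0.679 to 3.32 ± 0.637 CPM (-2.52, SE 0.17, adjusted p = 2.22e-05) and Spry2 fell from 101 ± 7.06 to 55.5 ± 1.78 CPM (-0.86, SE 0.10, adjusted p = 0.000407). Cblb, a ubiquitin ligase that acts on activated receptors, rose from 79.0 ± 5.15 to 160.2 ± 8.20 CPM (1.02, SE 0.10, adjusted p = 0.000163).

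Vegfa is a classical target of hypoxia-inducible factors, so those factors and their other targets were examined. Of 9 tested factors and regulators, 2 were called higher and 0 lower, where 18.3% and 19.3% of all genes were. The 2 called higher were Arnt, the constant partner of the factors, at 90.5 ± 2.30 and 119 ± 4.86 CPM (log2 fold change 0.40, SE 0.09, edgeR adjusted p = 0.0113), and Epas1, which was below 1 CPM on average and is named because its list had only 2 calls. Of 14 tested hypoxia-induced genes other than Vegfa, 1 was called higher and 6 lower, where 18.3% and 19.3% of all genes were, with a median log2 fold change of -0.17. Ndrg1 fell from 105 ± 5.42 to 25.1 ± 0.931 CPM (-2.06, SE 0.10, adjusted p = 4.89e-06) and Ddit4, an inhibitor of mTOR signalling, fell from 26.8 ± 3.1005 to 13.1 ± 2.47 CPM (-1.03, SE 0.17, adjusted p = 0.00272). The 1 that rose was Mxi1, which encodes an antagonist of Myc, from 51.8 ± 1.75 to 112 ± 3.18 CPM (1.11, SE 0.09, adjusted p = 6.39e-05).

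Of 14 immediate early genes, transcription factors induced within a short time of growth factor stimulation, 5 were called higher and 1 lower, where 18.3% and 19.3% of all genes were, with a median log2 fold change of 0.04. Egr1 rose from 17.05 ± 1.62 to 87.6 ± 11.6 CPM (2.36, SE 0.14, edgeR adjusted p = 1.25e-05) and Egr2 rose from 0.758 ± 0.190 to 3.30 ± 0.448 CPM (2.13, SE 0.25, adjusted p = 0.000408). Jun fell from 109.6 ± 2.48 to 59.9 ± 3.79 CPM (-0.87, SE 0.10, adjusted p = 0.000321).

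**Figure D4:**
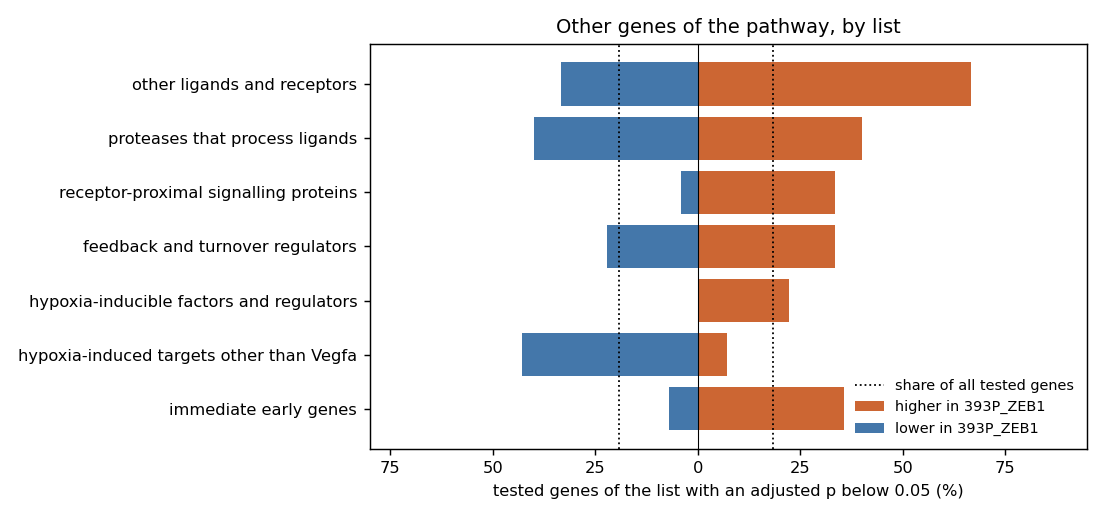
Percent of the tested genes of each of the 7 pathway lists with an adjusted p below 0.05, to the right for higher and to the left for lower in 393P_ZEB1. Dotted lines mark the shares over all tested genes, 18.3% higher and 19.3% lower, and the lists of cell type markers are not plotted. On the lower side the bar of the hypoxia-induced targets, 6 of 14 genes, is the longest of these 7 lists.

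Because Kdr, Pdgfra and Pdgfrb are also markers of stromal cells, other markers of those cells were read beside them. Of 12 endothelial markers, 11 were below 1 CPM in every sample and the summed level was between 3.75 and 4.67 CPM in 393P_vector and between 3.08 and 3.70 CPM in 393P_ZEB1. The defining endothelial genes Cdh5 and Pecam1 were at 0.0755 and 0.327 CPM in 393P_vector and at 0.144 CPM each in 393P_ZEB1. Of 5 endothelial markers tested, 0 were called higher and 2 lower (Esam and Erg). Of all tested genes, 18.3% were called higher and 19.3% lower, the shares to set beside each marker count here. Eng, the endothelial marker above 1 CPM, was at 1.93 CPM in 393P_vector and 2.23 CPM in 393P_ZEB1 and was not called. Tek, too low for the test, was at 0.0585 and 0.149 CPM. Of 8 fibroblast markers, summed between 3.77 and 6.47 CPM in 393P_vector and between 3.89 and 5.07 CPM in 393P_ZEB1, 4 were tested, with 1 called higher (Col3a1) and 1 lower (Col6a3). Of 10 mural cell markers, the sum was between 40.4 and 58.0 CPM in 393P_vector and between 3.74 and 4.90 CPM in 393P_ZEB1. Of these, 8 were tested, of which 0 were called higher and 5 lower (Mcam, Acta2, Notch3, Cnn1 and Cspg4). Mcam alone was at 38.4 CPM against 1.18 CPM, while Rgs5 was at 0.0354 and 0.0115 CPM and Kcnj8 at 0.0448 and 0.0299 CPM. Des, at 0.216 CPM in 393P_vector and 0.336 CPM in 393P_ZEB1, was higher without overlap but not called (edgeR adjusted p = 0.122). Of 8 haematopoietic markers, the sum was between 20.4 and 21.7 CPM in 393P_vector and between 58.4 and 61.5 CPM in 393P_ZEB1, of which Cd14 made up 17.04 and 58.0 CPM on average, and Ptprc was at 0.258 and 0.198 CPM. Of 5 haematopoietic markers tested, 1 was called higher (Cd14) and 1 lower (Csf1r, at 0.860 against 0.241 CPM), with a median log2 fold change of -0.66. The part of such cells in the levels of the receptors was not tested.

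The genes whose profile over the 6 samples was nearest to that of Pdgfrb, the listed gene that rose, were Lbh, Btg2 and Mpp2, at root mean square distances of 0.0872, 0.0901 and 0.0905 in centred log2 CPM. Their log2 fold changes were 1.22, 1.14 and 1.26. The genes nearest to Kdr were Kcnh2, Tnxb and Eps8l1, at distances of 0.159, 0.166 and 0.180, with log2 fold changes of -2.75, -2.73 and -2.42. Likeness was measured over these 6 samples only, among tested genes with a mean of at least 1 CPM, a level Pdgfrb itself did not reach. Because the genes were picked by this distance, fold changes like those of Pdgfrb and Kdr followed from the choice.

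On the reference map, no listed gene overlapped another feature of the tables. In GENCODE M21, Pdgfra shares 30 exon bases with Mir7025 on its own strand. On the other strand, Pdgfa shares 813 exon bases with 6330403L08Rik, Pdgfc shares 147 with Gm16000, and Pdgfra shares 456 with Gm42802 and 166 with Gm42803. Whether reads were counted by strand is not given in the sources used here, so reads from these genes and their antisense partners cannot be told apart.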

How the data were processed

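RNA had been extracted with RNeasy columns and sequenced as total RNA on the SOLiD platform. The authors deposited a table for each sample with the raw count of reads per RefSeq feature, its exon length and coordinates on GRCm38, and the number of exons with more than 10 reads. A deposited RPKM column was not used, and the aligner and counter are not given in the sources used here. Samples were grouped by the labels. Counts were tested in R 4.3.3 with edgeR 4.0.16 (filterByExpr with a minimum count of 10, TMM, robust quasi-likelihood, condition only), with Benjamini-Hochberg adjustment over 13892 genes. The biological coefficient of variation was 0.184. CPM used TMM library sizes, and levels between genes were divided by exon length. Sums and shares were compared by exact permutation in Python 3.11.15. The test was checked on simulated data. Alternatives used DESeq2 1.42.0, limma 3.58.1, other filters, a replicate block, stricter thresholds and each sample left out. The genes and lists were chosen with earlier results of these data known. Named were Zeb1, the 10 genes, the other family genes, genes nearest in profile, genes overlapping a member and, from each further list, up to 2 called rises and 2 called falls of the largest size at a mean of at least 1 CPM. Motif and seed searches, the neighbors of Kdr and list counts without 393P_vector replicate 3 were added after seeing the data.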

Additional observations from a re-analysis of the deposited data

How the results depend on the processing

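Of 150 comparisons of the 10 listed genes with the main fit, 132 kept their direction and their side of the threshold. Kdr, Pdgfra and Flt1 did so under all 15 alternatives, and Vegfa under 14. The adjusted p below 0.01 and the test against a fold change of 1.5 kept the log2 fold changes of the main fit. Under these, no direction could change and no call could be gained, so part of the 132 was fixed in advance. By limma voom with sample weights 3977 genes were called higher and 4094 lower, Pdgfb (-0.34, adjusted p = 0.00355) and Pdgfc (-0.27, adjusted p = 0.01001) passed the threshold, and Pdgfa changed sign to -0.0043 (adjusted p = 0.969). At an adjusted p below 0.01, 1584 genes were higher and 1545 lower, 0 of the 10 were called higher, and Pdgfrb (1.18) and Vegfc (-0.64) were not called. Against a fold change of 1.5, 1081 of 13892 genes were higher and 1118 lower, and 0 of the 10 were higher and 2 lower. Pdgfrb (1.18, adjusted p = 0.0824), Vegfa (-0.73, adjusted p = 0.185) and Vegfc (-0.64, adjusted p = 0.583) were not called. By this test the genes next to the receptors gave 2 higher and 0 lower, and the feedback regulators 2 and 2. The hypoxia-inducible factors gave 1 and 0, the hypoxia-induced targets 1 and 3, and the immediate early genes 3 and 1. The proteases gave 3 and 3, and the other family genes 3 and 2.

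With a replicate block, the pairing by replicate number gave 2180 genes higher and 2256 lower, 1 of the 10 higher and 3 lower, and Vegfc was at -0.63 (adjusted p = 0.0668). The same-number correlations of deviations were 0.279, -0.205 and -0.0377, and not every sample correlated best with its own number. With 3 samples in a group, each centred on the group mean, these correlations cannot decide whether the numbers pair the samples. Leaving out each sample in turn gave 1861 to 3700 genes higher and 1784 to 3776 lower, the lowest count of genes lower without 393P_ZEB1 replicate 3. Of the 10 genes, 0 to 1 were higher and 3 to 5 lower. The log2 fold change ranged from -0.047 to 0.11 for Pdgfa, -0.37 to -0.059 for Pdgfb, 1.04 to 1.30 for Pdgfrb, -0.13 to 0.11 for Vegfb and -0.75 to -0.51 for Vegfc. Without division by exon length, the difference in share, 393P_ZEB1 minus 393P_vector, changed sign for Pdgfb (0.0589 percentage points) and Vegfb (0.331). With and without the division, this difference was 41.5 and 31.8 percentage points for Pgf and 65.4 and 61.3 for Nrp1. For Kdr it was -4.33 and -3.92, and for Vegfc -2.27 and -0.87. Apart from fewer samples in the fits that left one out and the stricter thresholds themselves, the cause of these shifts was not tested. Counts limit the precision most for Pdgfrb, with 12 to 30 per sample.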
